A study of Homo sapiens with 6 samples.

Results

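The genes described here build and move the actin cytoskeleton, together with the transcription factor SRF and its MRTF co-activators. They were taken by gene symbol from a list of 41, using array probe sets whose annotation names only that gene. Of these, 38 were measured among 18132 genes tested, and no probe set naming only TPM3, ACTR2 or FLNA was found in the annotation used. The list groups genes by function.

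Expression was measured on 6 Affymetrix PrimeView arrays, 1 per sample. The SHCBP1 shRNA group holds 3 samples of cells given a lentivirus that carries a short hairpin RNA (shRNA) against SHCBP1, a gene whose product binds the adaptor SHC1 and is known to act in cytokinesis. The control shRNA group holds 3 samples given a lentivirus with a control shRNA. Both groups are labelled TPC-1, a human line established from a papillary carcinoma of the thyroid, although the extraction text names DLD1, a colorectal carcinoma line. The titles name 1 shRNA against SHCBP1, no rescue and no uninfected cells, and an off-target action of that hairpin cannot be told apart from loss of SHCBP1. The samples are called independent but not tied to separate cultures, so the p-values reflect spread among samples that may be technical only. Fewer cells of a kind and less RNA per cell cannot be told apart in bulk RNA either.

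In the deposited log2 table the 6 values of every probe set have a median of 0, so the table holds differences between arrays and no level. Whether markers of a cell type are present or absent could therefore not be read. Of the marker genes listed for 3 cell types, 1 of 6 thyroid, 2 of 7 colorectal and 1 of 8 smooth muscle and fibroblast genes differed between the groups. All of these were higher with SHCBP1 shRNA. The shares were 16.7%, 28.6% and 12.5%, where 41.0% of all genes differed and 22.0% were higher. SHCBP1 itself had centred log2 values of -0.95, -0.76 and -0.72 in SHCBP1 shRNA arrays, against 0.72, 0.76 and 0.71 in control shRNA arrays, a log2 difference of -1.54 ± 0.06 (SE). The poly-A controls, bacterial transcripts spiked into the RNA before labelling, were higher in SHCBP1 shRNA arrays by 0.43 ± 0.04 log2 (SE). On a scale set by those controls, called the spike-in scale here, every gene moves down by that amount, so each rise given here is relative to the rest of the transcripts, and spike-in values are given with each group of genes.

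Actin monomers assemble into filaments that branch, bundle and contract under the control of binding proteins. Monomeric actin also binds the MRTF co-activators and keeps them from SRF. When monomers are used up in filaments, MRTFs enter the nucleus and, with SRF, activate genes that carry a CArG box, many of which encode actin and its partners. In thyroid carcinoma cells, as in other adherent cells, these proteins set cell shape, adhesion and the contractile ring of dividing cells.

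More of these genes were higher than lower in SHCBP1 shRNA arrays. By limma's moderated test with Benjamini-Hochberg adjustment over all genes at a threshold of 0.05, 22 of the 38 passed (57.9%), where 41.0% of all genes passed. They comprised 20 higher (52.6%, against 22.0% of all genes) and 2 lower (5.26%, against 19.0%). The median log2 difference was 0.14, against 0.02 over all genes. The groups did not overlap for 30 of the 38 genes, against 50.0% of all genes. All 3 SHCBP1 shRNA arrays lay above all 3 control shRNA arrays for 27 of them and below for 3, where 27.3% and 22.7% of all genes did so. The sizes were close to those of all genes that passed. Of the 22, 5 reached 0.5 on the log2 scale, namely CNN2, ARPC4, TPM1, RDX and DIAPH3. Over all genes 1489 of the 7440 that passed did so. The median absolute log2 difference among genes that passed was 0.2945 in the list and 0.2887 over all genes. On the spike-in scale the median was -0.29, with 4 of the genes higher (CNN2, ARPC4, TPM1 and RDX; 10.5%, against 2.43% of all genes) and 27 lower (71.1%, against 89.7%). That scale moves every gene down alike because the poly-A controls were higher in SHCBP1 shRNA arrays. What that difference in the controls reflects was not tested.

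**Figure D1:**
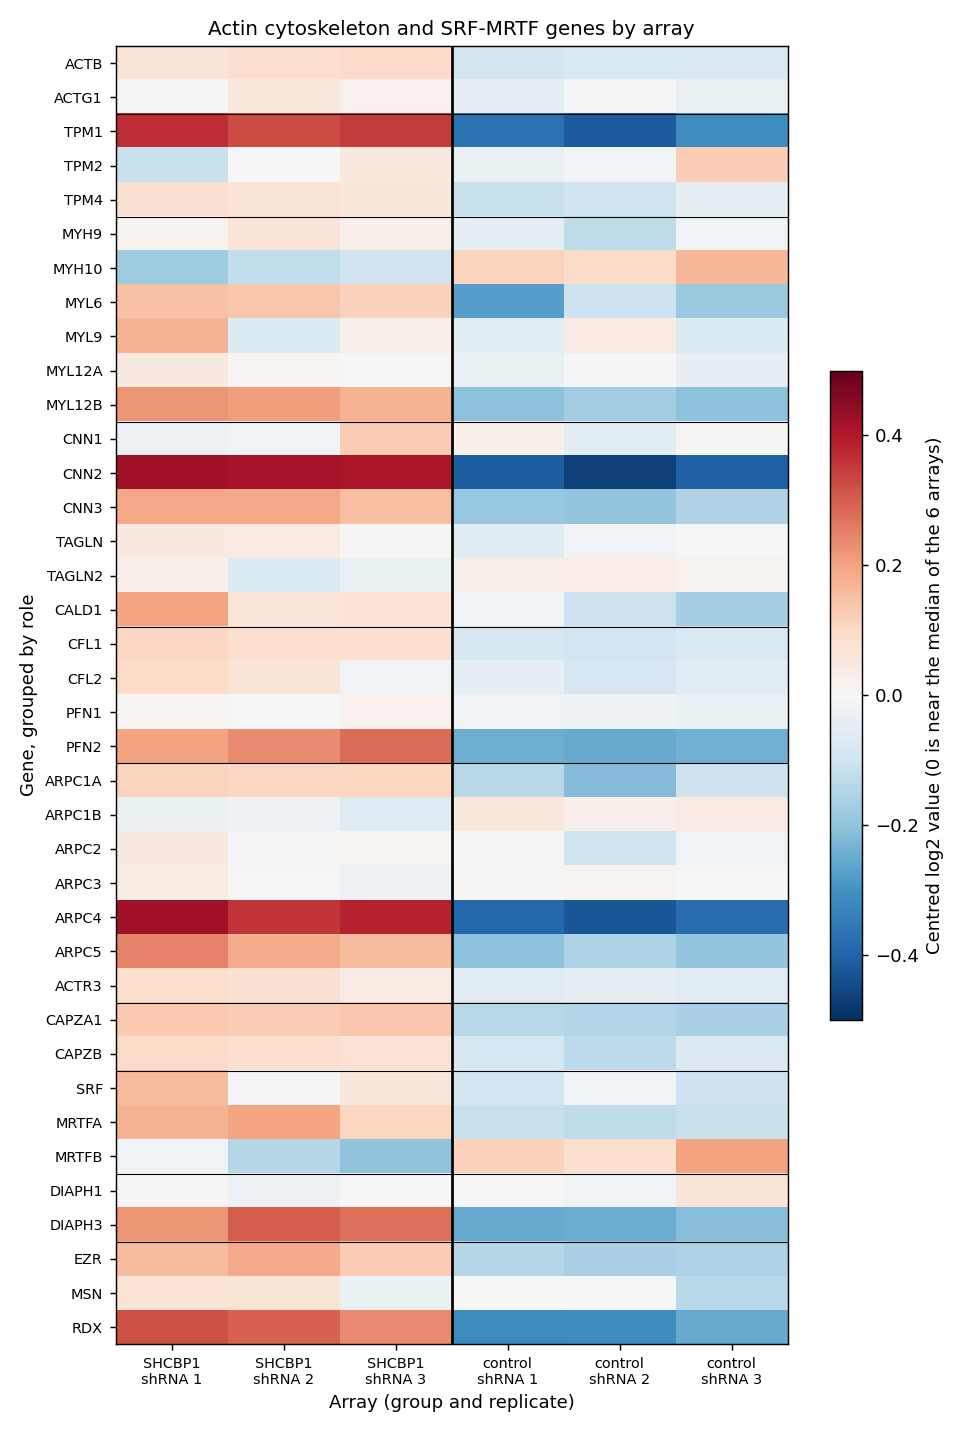
Centred log2 values of the 38 measured genes (rows, grouped by role) on each array (columns), with SHCBP1 shRNA arrays left of the vertical line and control shRNA arrays right of it. CNN2, ARPC4 and TPM1 show the strongest contrast between the groups, MYH10 and MRTFB run the opposite way, and TPM2, CNN1 and ARPC3 show none that is common to the 3 arrays of a group; on the spike-in scale the SHCBP1 shRNA columns would lie lower by 0.43 relative to the control shRNA columns.

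The transcription factors did not move together. SRF, the DNA-binding partner, had centred log2 values of 0.16, -0.0055 and 0.06 in SHCBP1 shRNA arrays, against -0.09, -0.01 and -0.10 in control shRNA arrays. The groups just failed to overlap, and the difference of 0.14 ± 0.05 (SE) did not pass (adjusted p = 0.0629). It passed without SHCBP1 shRNA replicate 2, at 0.18. Of its 2 probe sets, 1 was higher by 0.25 and the other differed by 0.03.

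MRTFA, the actin-regulated co-activator also known as MKL1, had values of 0.17, 0.20 and 0.11 in SHCBP1 shRNA arrays, against -0.11, -0.13 and -0.11 in control shRNA arrays. It rose 1.21-fold, by 0.27 ± 0.04 log2 (SE, adjusted p = 0.000542), and its 4 probe sets gave 0.19 to 0.46. Its relative MRTFB had values of -0.02, -0.14 and -0.20 in SHCBP1 shRNA arrays, against 0.12, 0.08 and 0.20 in control shRNA arrays. It fell by 0.25 ± 0.06 log2 (SE, adjusted p = 0.00844), with the groups apart. That fall came from 1 of its 3 probe sets, at -0.73, while the others were at -0.05 and 0.03, and with the median of probe sets in place of the mean, or without probe sets that may be shared (_s_at and _x_at), MRTFB did not pass (-0.13 and -0.01). Scaled to the spike-in controls, MRTFA and SRF turned to -0.16 and -0.29, and MRTFB was at -0.69.

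The promoters of these genes were searched for the CArG box, the site that SRF is known to bind, in the 250 bases before each start site in the RefSeq table (build GRCh38.p14). The box reads the same on both strands, so both were covered, and no matches overlapped. Of 27305 genes with a window, 394 (1.44%) held a match, and of 35116 windows 407 (1.16%) did. Among the 41 listed genes 36 had a window, and 5 of them held a match (13.9%): SRF, ACTG1, CNN2, TPM4 and FLNA. ACTB, ARPC1B, MYL9, PFN2 and TAGLN had no window and were not searched, so whether they hold a box is not known here. Since the list was drawn up around SRF, that share describes the list. The windows of the 4 measured genes with a match are shown with the boxes in capitals.
SRF, chr6:43171019-43171268, plus strand: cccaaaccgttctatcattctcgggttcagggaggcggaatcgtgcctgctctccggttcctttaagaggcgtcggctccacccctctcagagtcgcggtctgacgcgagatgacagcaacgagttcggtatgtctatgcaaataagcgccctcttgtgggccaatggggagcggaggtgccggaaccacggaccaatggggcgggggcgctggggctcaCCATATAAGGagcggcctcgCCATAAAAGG
ACTG1, chr17:81512800-81513049, minus strand: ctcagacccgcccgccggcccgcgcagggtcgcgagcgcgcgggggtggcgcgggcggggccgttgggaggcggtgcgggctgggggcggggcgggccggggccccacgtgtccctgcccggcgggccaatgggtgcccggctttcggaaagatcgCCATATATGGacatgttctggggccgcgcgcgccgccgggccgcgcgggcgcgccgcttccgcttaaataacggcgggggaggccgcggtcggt
CNN2, chr19:1026358-1026607, plus strand: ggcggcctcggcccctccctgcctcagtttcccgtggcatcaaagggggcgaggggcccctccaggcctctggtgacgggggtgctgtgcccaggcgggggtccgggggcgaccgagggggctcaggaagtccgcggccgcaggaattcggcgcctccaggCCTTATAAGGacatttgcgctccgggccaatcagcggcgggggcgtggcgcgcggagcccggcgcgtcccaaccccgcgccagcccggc
TPM4, chr19:16067288-16067537, plus strand: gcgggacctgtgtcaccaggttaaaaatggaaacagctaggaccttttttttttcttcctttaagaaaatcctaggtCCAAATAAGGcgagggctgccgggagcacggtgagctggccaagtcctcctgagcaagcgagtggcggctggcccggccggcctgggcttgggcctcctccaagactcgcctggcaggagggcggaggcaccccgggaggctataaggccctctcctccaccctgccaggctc

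The SRF window held 2 boxes, CCATATAAGG and CCATAAAAGG, 30 to 21 and 10 to 1 bases before the start. CNN2 held CCTTATAAGG, ACTG1 CCATATATGG and TPM4 CCAAATAAGG, beginning 89, 94 and 173 bases before the start. Of these 4 genes, CNN2 and TPM4 rose, and SRF and ACTG1 did not pass. Of the 18 risen genes with a window, 2 held a box, as did 2 of the 13 measured genes that did not pass. The window of FLNA held CCAATTAAGG, but FLNA was not measured. The windows of TPM1 and ARPC4, which follow CNN2 among the largest rises, held no match within these 250 bases. The TPM1 window lies inside the gene's span, which begins at 63042747 on chromosome 15, so a start site farther upstream was not searched.
TPM1, chr15:63048239-63048488, plus strand: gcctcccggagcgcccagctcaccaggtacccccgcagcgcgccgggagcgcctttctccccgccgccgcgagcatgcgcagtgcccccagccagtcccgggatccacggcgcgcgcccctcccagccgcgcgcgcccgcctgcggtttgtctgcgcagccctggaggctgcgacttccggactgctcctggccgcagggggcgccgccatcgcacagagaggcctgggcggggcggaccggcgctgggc
ARPC4, chr3:9792268-9792517, plus strand: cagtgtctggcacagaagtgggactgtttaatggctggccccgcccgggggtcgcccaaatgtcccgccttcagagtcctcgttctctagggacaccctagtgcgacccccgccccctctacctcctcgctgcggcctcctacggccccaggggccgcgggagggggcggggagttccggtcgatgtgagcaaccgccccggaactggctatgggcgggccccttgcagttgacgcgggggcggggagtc

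The cytoplasmic actins, which form the filaments of non-muscle cells, moved little. ACTB had centred log2 values of 0.06, 0.08 and 0.10 in SHCBP1 shRNA arrays, against -0.09, -0.08 and -0.07 in control shRNA arrays. The groups were well apart, and ACTB rose by 0.16 ± 0.03 log2 (SE, 1.12-fold, adjusted p = 0.004). Taken singly, 2 of its 3 probe sets passed. ACTG1, which differs from ACTB at a few residues, had values of 0.0077, 0.05 and 0.02 in SHCBP1 shRNA arrays, against -0.05, -0.0040 and -0.04 in control shRNA arrays. Its difference of 0.06 ± 0.03 (SE) did not pass (adjusted p = 0.228). All probe sets of both actins end in _x_at, the Affymetrix mark for probes that may also bind other sequences, so the 2 values may share signal. Affymetrix also places control probe sets along the ACTB transcript to check RNA integrity. They gave 0.20 at the 3′ end, 0.26 in the middle and 0.28 at the 5′ end, and the 3′ minus 5′ value was lower by 0.08 ± 0.02 (SE) in SHCBP1 shRNA arrays. The same value for GAPDH, the other transcript with such controls, was -0.0059 ± 0.02 (SE), with overlapping groups. Relative to the spike-in controls ACTB was at -0.27 and ACTG1 at -0.38.

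Tropomyosins lie along actin filaments and govern which proteins reach them. TPM1 had centred log2 values of 0.37, 0.33 and 0.35 in SHCBP1 shRNA arrays, against -0.37, -0.41 and -0.31 in control shRNA arrays. It rose 1.64-fold, by 0.71 ± 0.04 log2 (SE, adjusted p = 7.21e-06), and remained higher on the spike-in scale, at 0.28. All 9 of its probe sets passed, but their sizes ran from 0.39 to 1.27, with SEs of single probe sets from 0.04 to 0.11. TPM1 is known to yield many isoforms by alternative promoters and splicing, and which isoform each probe set reads is not given in the sources used here.

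TPM4 had values of 0.08, 0.06 and 0.06 in SHCBP1 shRNA arrays, against -0.11, -0.10 and -0.04 in control shRNA arrays. It rose by 0.15 ± 0.03 log2 (SE, adjusted p = 0.00909), with 3 of its 5 probe sets past the threshold, and turned to -0.28 on the spike-in scale. TPM2, more typical of muscle, had values of -0.11, -0.0014 and 0.05 in SHCBP1 shRNA arrays, against -0.04, -0.01 and 0.12 in control shRNA arrays. Its groups overlapped and the difference of -0.05 ± 0.06 (SE) did not pass (adjusted p = 0.60).

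Non-muscle myosin II pulls on actin filaments, with paired heavy chains, essential light chains such as MYL6 and regulatory light chains such as MYL9, MYL12A and MYL12B. The heavy chains went different ways. MYH10, heavy chain IIB, had centred log2 values of -0.18, -0.12 and -0.10 in SHCBP1 shRNA arrays, against 0.11, 0.09 and 0.16 in control shRNA arrays. It fell by 0.26 ± 0.04 log2 (SE, adjusted p = 0.00109). Its 3 probe sets were all below 0, from -0.45 to -0.14, and 2 of them passed. MYH9, heavy chain IIA, had values of 0.02, 0.06 and 0.02 in SHCBP1 shRNA arrays, against -0.05, -0.13 and -0.02 in control shRNA arrays. The groups did not overlap, but the difference of 0.10 ± 0.04 (SE) did not pass (adjusted p = 0.0897).

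Among the light chains, MYL6 had values of 0.15, 0.14 and 0.11 in SHCBP1 shRNA arrays, against -0.28, -0.10 and -0.18 in control shRNA arrays. It rose by 0.32 ± 0.05 log2 (SE, 1.25-fold, adjusted p = 0.00109), with more spread in the control arrays. With its plain _at probe set alone it was at 0.22 and did not pass. MYL12B had values of 0.22, 0.21 and 0.17 in SHCBP1 shRNA arrays, against -0.21, -0.17 and -0.21 in control shRNA arrays. It rose by 0.40 ± 0.03 log2 (SE, 1.32-fold, adjusted p = 5.4e-05). MYL12A, a near-identical neighbouring gene, gave 0.05 ± 0.03 (SE) and MYL9, the form of smooth muscle, 0.07 ± 0.06 (SE), and neither passed (adjusted p = 0.286 and 0.449). MYL12B rests on 1 probe set ending in _s_at, a mark for probes shared between transcripts, so its separation from MYL12A is uncertain. On the spike-in scale MYL6 and MYL12B were at -0.11 and -0.04, MYH9 at -0.34 and MYH10 at -0.69.

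The calponin family and caldesmon bind along actin filaments and restrain myosin, and CNN1, TAGLN and CALD1 are textbook products of SRF in smooth muscle. Among the 38 measured genes of the main list, the largest rise was in CNN2, the calponin of non-muscle cells. It had centred log2 values of 0.42, 0.41 and 0.41 in SHCBP1 shRNA arrays, against -0.41, -0.47 and -0.40 in control shRNA arrays. That is 1.79-fold, or 0.84 ± 0.03 log2 (SE, adjusted p = 1.93e-06), and all 9 probe sets rose, by 0.78 to 0.94. It was at 0.41 on the spike-in scale and passed there too.

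CNN3, the acidic calponin, had values of 0.19, 0.19 and 0.15 in SHCBP1 shRNA arrays, against -0.19, -0.20 and -0.15 in control shRNA arrays. It rose by 0.36 ± 0.03 log2 (SE, 1.28-fold, adjusted p = 0.000102) on 1 probe set, and turned to -0.08 on the spike-in scale. CNN1, the smooth muscle calponin, had values of -0.03, -0.02 and 0.13 in SHCBP1 shRNA arrays, against 0.02, -0.06 and 0.0066 in control shRNA arrays. The groups overlapped (difference 0.03 ± 0.05, SE, adjusted p = 0.658), while the other calponins rose.

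TAGLN, or transgelin, gave 0.06 ± 0.03 log2 (SE, adjusted p = 0.229) and its relative TAGLN2 -0.05 ± 0.04 (SE, adjusted p = 0.316). Neither passed, with 0 of their 6 and 5 probe sets past the threshold. CALD1, caldesmon, had centred log2 values of 0.20, 0.06 and 0.07 in SHCBP1 shRNA arrays, against -0.01, -0.11 and -0.17 in control shRNA arrays. It rose by 0.20 ± 0.06 log2 (SE, adjusted p = 0.0207), but only 2 of its 10 probe sets passed, in a range of -0.07 to 0.45. The call was lost without SHCBP1 shRNA replicate 1 (log2 difference 0.16), without control shRNA replicate 2 (0.20), without control shRNA replicate 3 (0.17) and with the median of probe sets. CALD1 and TAGLN were at -0.23 and -0.38 on the spike-in scale.

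Cofilins sever filaments and profilins deliver monomers to growing ends. CFL1, the non-muscle cofilin, had centred log2 values of 0.10, 0.08 and 0.08 in SHCBP1 shRNA arrays, against -0.08, -0.10 and -0.08 in control shRNA arrays. It rose by 0.17 ± 0.03 log2 (SE, 1.13-fold, adjusted p = 0.00253), in all 6 probe sets, but in the fit of plain _at probe sets alone it was at 0.15 and did not pass. CFL2, the muscle form, gave 0.11 ± 0.04 (SE) and did not pass (adjusted p = 0.0695), with 1 of 3 probe sets at 0.35 and the others at 0.0076 and -0.03, and it passed without SHCBP1 shRNA replicate 3 (0.14).

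PFN2 had values of 0.20, 0.24 and 0.28 in SHCBP1 shRNA arrays, against -0.24, -0.25 and -0.24 in control shRNA arrays. It rose 1.40-fold, by 0.48 ± 0.03 log2 (SE, adjusted p = 2.54e-05), in all 4 probe sets. PFN1, the widely expressed profilin, had values of 0.0099, 0.0004 and 0.02 in SHCBP1 shRNA arrays, against -0.02, -0.03 and -0.04 in control shRNA arrays. Its difference of 0.04 ± 0.03 (SE) did not pass (adjusted p = 0.395). PFN2 was at 0.05 on the spike-in scale and did not pass there, and CFL1 was at -0.26.

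The Arp2/3 complex starts new branches on existing filaments and holds ACTR2, ACTR3 and the ARPC subunits. Of the 7 subunits measured, 4 rose (57.1%, against 22.0% of all genes), by unequal amounts, and 3 did not pass. ARPC4, a core subunit, had centred log2 values of 0.42, 0.36 and 0.39 in SHCBP1 shRNA arrays, against -0.39, -0.43 and -0.38 in control shRNA arrays. It rose 1.73-fold, by 0.79 ± 0.03 log2 (SE, adjusted p = 2.75e-06), and its 3 probe sets gave 0.74 to 0.84. Its rise of 0.36 on the spike-in scale passed as well.

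ARPC5 had values of 0.25, 0.18 and 0.16 in SHCBP1 shRNA arrays, against -0.21, -0.15 and -0.20 in control shRNA arrays, a rise of 0.38 ± 0.04 log2 (SE, adjusted p = 0.000128). ARPC1A rose by 0.26 ± 0.04 (SE, adjusted p = 0.00111), while ARPC1B, which takes the same place in the complex, gave -0.08 ± 0.03 (SE, adjusted p = 0.0817). ACTR3, one of the 2 actin-related subunits, rose by 0.12 ± 0.03 (SE, adjusted p = 0.0193), with 1 of its 2 probe sets past the threshold. Its call was lost without SHCBP1 shRNA replicate 1 (0.11), without SHCBP1 shRNA replicate 2 (0.11) or without control shRNA replicate 1 (0.12). ARPC2 and ARPC3, at 0.05 ± 0.04 (SE) and -0.0055 ± 0.03 (SE), had overlapping groups and did not pass. On the spike-in scale ARPC5, ARPC1A and ACTR3 were at -0.05, -0.17 and -0.31, so ARPC4 alone of the measured subunits stayed above 0 there.

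Capping protein, a pair of subunits that closes the growing end, rose in both subunits. CAPZA1 had centred log2 values of 0.13, 0.12 and 0.14 in SHCBP1 shRNA arrays, against -0.14, -0.14 and -0.16 in control shRNA arrays. It rose by 0.28 ± 0.03 log2 (SE, adjusted p = 0.000221), with all 4 probe sets past the threshold. CAPZB rose by 0.18 ± 0.03 (SE, adjusted p = 0.00338) on 1 probe set. They were at -0.16 and -0.26 on the spike-in scale.

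Formins build unbranched filaments. DIAPH3, a formin with a known part in cytokinesis, had centred log2 values of 0.22, 0.30 and 0.28 in SHCBP1 shRNA arrays, against -0.25, -0.25 and -0.21 in control shRNA arrays. It rose 1.42-fold, by 0.50 ± 0.04 log2 (SE, adjusted p = 2.55e-05), and gave 0.07 on the spike-in scale, where it did not pass. DIAPH1, another formin, gave -0.02 ± 0.04 (SE, adjusted p = 0.687), and its 8 probe sets held 1 fall of 0.19 and 1 rise of 0.13. No other gene of the list had probe sets that passed in opposite directions.

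The ERM proteins ezrin (EZR), moesin (MSN) and radixin (RDX) tie filaments to the cell membrane. RDX had centred log2 values of 0.32, 0.29 and 0.24 in SHCBP1 shRNA arrays, against -0.32, -0.31 and -0.25 in control shRNA arrays. It rose 1.49-fold, by 0.58 ± 0.04 log2 (SE, adjusted p = 1.81e-05), in 7 of 8 probe sets that ran from 0.20 to 0.86. EZR had values of 0.16, 0.19 and 0.13 in SHCBP1 shRNA arrays, against -0.14, -0.16 and -0.16 in control shRNA arrays.

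EZR rose by 0.31 ± 0.03 log2 (SE, 1.24-fold, adjusted p = 0.000183). Its 3 probe sets ending in _s_at gave 0.30 to 0.56 and the other 2 gave 0.09 and 0.11, and its call was lost when _s_at and _x_at probe sets were left out. MSN had overlapping groups and gave 0.08 ± 0.05 (SE, adjusted p = 0.266). Scaled to the spike-in controls RDX was at 0.14 and passed, and EZR was at -0.12.

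**Figure D2:**
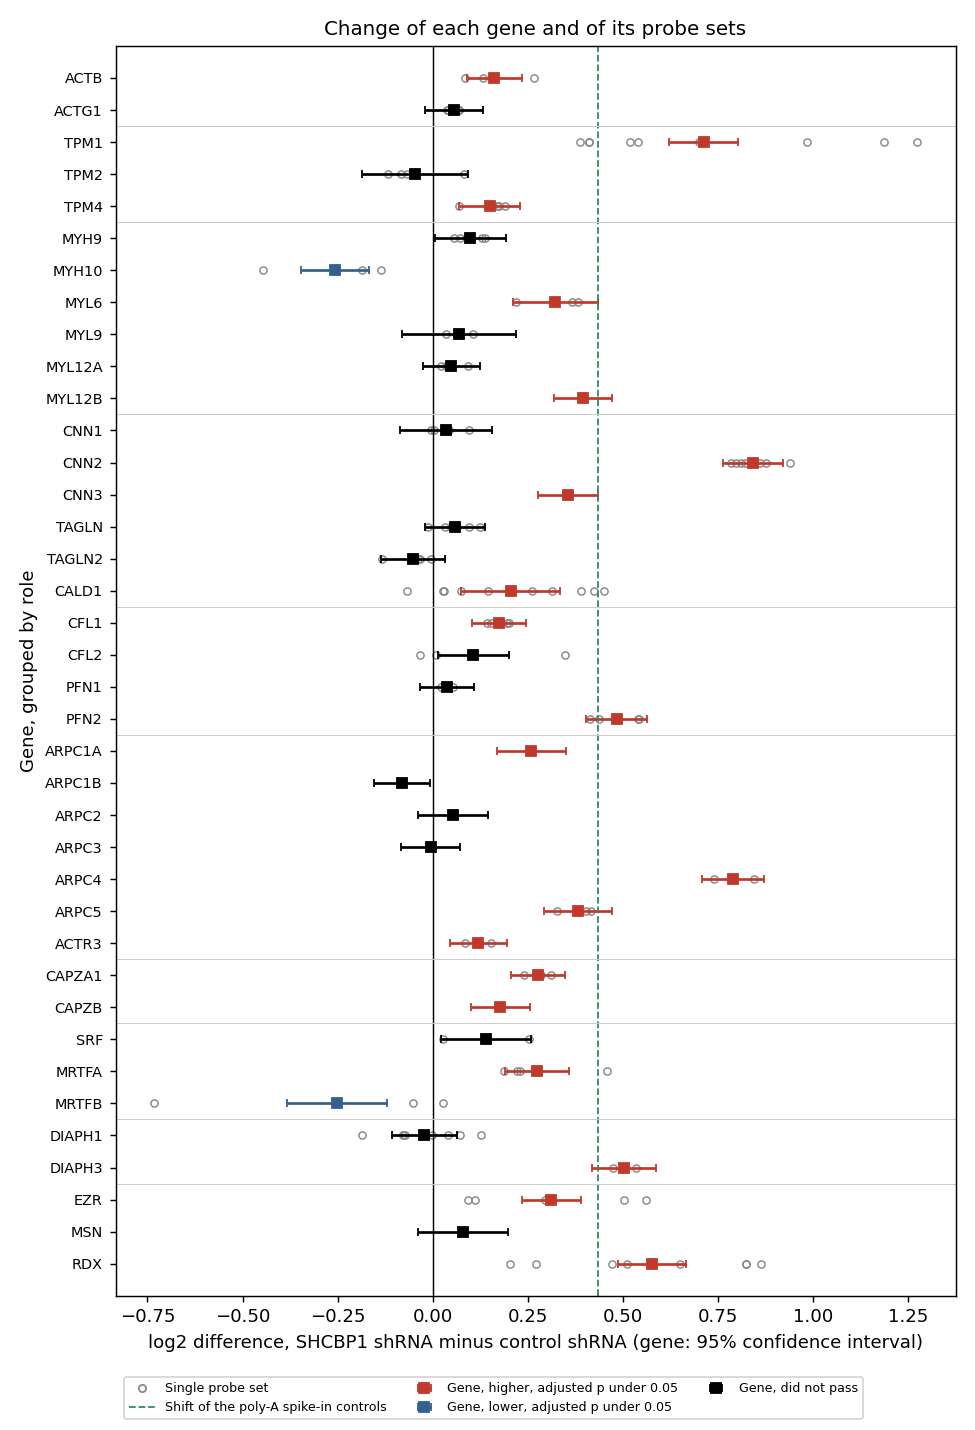
Squares give each gene's log2 difference, SHCBP1 shRNA minus control shRNA, with its 95% confidence interval, open circles its single probe sets, and the dashed line the shift of the poly-A spike-in controls (0.43). CNN2, ARPC4, TPM1, RDX, DIAPH3 and PFN2 lie right of the dashed line, the other 14 rises lie between 0 and that line and turn below 0 on the spike-in scale, and the probe sets of TPM1, RDX, EZR, CALD1 and MRTFB are spread widely.

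Over the whole list, 32 of the 38 genes had more than 1 probe set. Taken singly, 75 of the 145 probe sets passed (51.7%, against 38.4% of all probe sets that name 1 gene), 71 higher (49.0%, against 20.2%) and 4 lower (2.76%, against 18.2%). The spread within a gene was therefore in size more often than in direction.

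Related genes were then compared within each array, by subtracting the centred value of one from that of the other. Such a difference is the same on every scale that moves a whole array, the spike-in scale included, and it shows unequal change, not that either gene stayed put. In each pair the gene with the larger change is named first, so the direction is set by that choice. Of 20 pairs within 12 families, 19 had groups that did not overlap. The share among pairs drawn from all genes was not computed, and of single genes 50.0% did not overlap. The pairs were also formed after seeing the data, so the count describes these pairs only. With 3 arrays per group the two-sided exact permutation test can give no p below 0.1, and those 19 pairs gave that value (0.105 after Benjamini-Hochberg adjustment over the 20 pairs), so none can pass 0.05.

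The widest gap was CNN2 minus CNN1, at 0.39 ± 0.09 in SHCBP1 shRNA arrays and -0.42 ± 0.01 in control shRNA arrays (SD, n = 3 each), a difference of 0.81 ± 0.05 (SE). TPM1 minus TPM2 followed at 0.76 ± 0.06 (SE) and TPM1 minus TPM4 at 0.56 ± 0.02 (SE). MRTFA minus MRTFB gave 0.53 ± 0.06 (SE) and DIAPH3 minus DIAPH1 0.53 ± 0.04 (SE). The MRTFB part of that gap comes from 1 probe set, at -0.73. Under the alternative settings 234 of 235 values of these pairs kept their sign, and 23 moved by more than the spread among arrays. Part of the 235 could not move, since array centring and spike-in scaling leave a difference within an array unchanged. Adding the control probe sets could alter only ACTB minus ACTG1. Other values came from leaving out 1 array in pairs already ordered by size, so the count does not measure how stable the pairs are. Within the ERM proteins RDX exceeded MSN by 0.50 ± 0.07 (SE), and within the profilins PFN2 exceeded PFN1 by 0.45 ± 0.02 (SE). MYH9 minus MYH10, MYL12B minus MYL12A and ARPC1A minus ARPC1B lay at 0.35, 0.35 and 0.34. At the narrow end were ACTB minus ACTG1 at 0.11 ± 0.02 (SE), CFL1 minus CFL2 at 0.07 ± 0.03 (SE) and MYL9 minus MYL12A at 0.02 ± 0.06 (SE), the 1 pair whose groups overlapped (exact permutation p = 0.8).

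**Figure D3:**
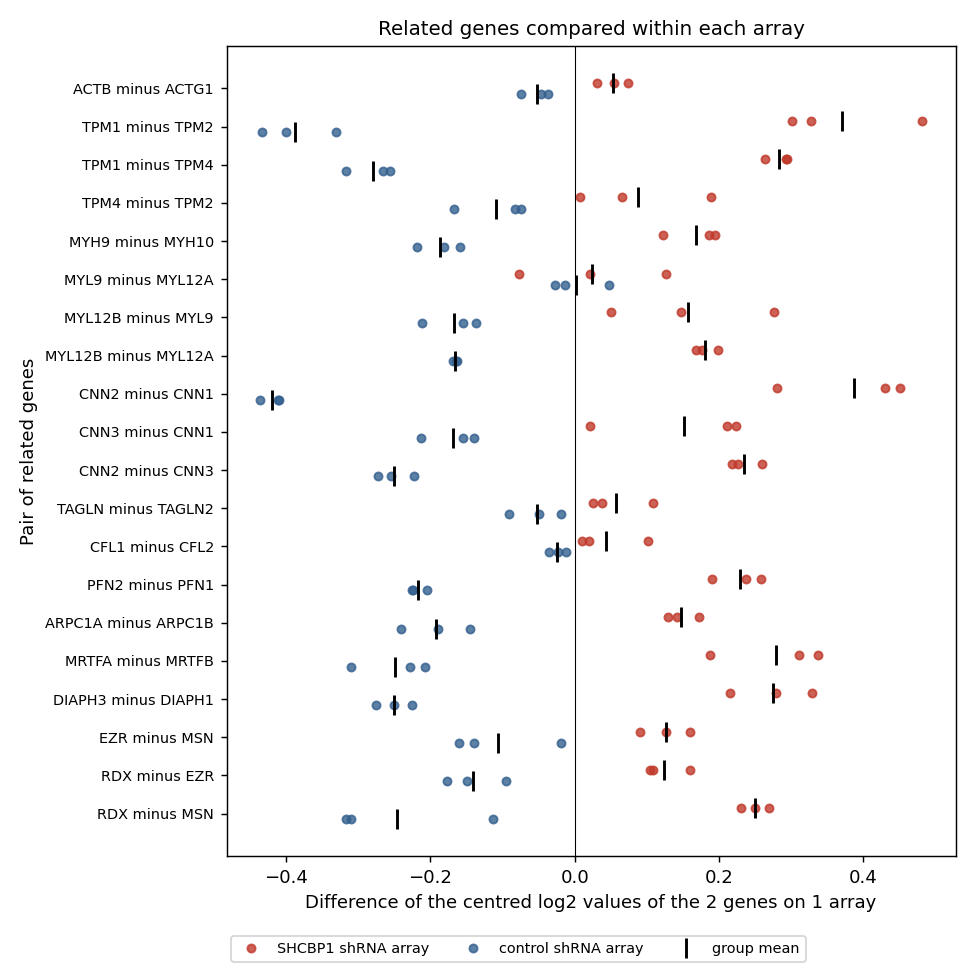
Each point is the difference between the centred log2 values of 2 related genes on 1 array, with SHCBP1 shRNA arrays drawn above control shRNA arrays in each row and vertical marks for group means. The groups are apart in 19 of 20 pairs, widest for CNN2 minus CNN1, and overlap for MYL9 minus MYL12A. The share among pairs drawn from all genes was not computed.

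Other actin genes were read from 6 lists of 117 genes chosen by function, of which 108 were measured. Together 28 were higher (25.9%, against 22.0% of all genes) and 38 lower (35.2%, against 19.0%), with a median of 0.0073. On the spike-in scale 6 were higher (5.56%, against 2.43% of all genes) and 97 lower (89.8%, against 89.7%). The lists differed in the balance of rises and falls, and no test compared them. The wider-list genes named here as risen or fallen passed limma's test with adjusted p between 1.61e-07 (CCN1) and 0.00512 (TGFB1I1).

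Other nucleators and their activators held 5 rises (21.7%, against 22.0% of all genes) and 11 falls (47.8%, against 19.0%) among 23 measured (median -0.13). The Arp2/3 subunit isoforms ARPC5L and ACTR3B belong to this list. ARPC5L and ACTR3B were among the rises and are named after their values were seen. The WAVE complex, which switches on Arp2/3, was uneven. Its small subunit gene BRK1 rose by 0.95 ± 0.05 log2 (SE) on 1 probe set. NCKAP1, CYFIP1 and CYFIP2 fell by 0.71 ± 0.03, 0.69 ± 0.04 and 0.54 ± 0.04 (SE). Of its other genes in this list, ABI1 also rose (0.24 ± 0.03, SE). WASF2 (0.05 ± 0.04, SE) and WASF3 (0.11 ± 0.05, SE) did not pass. ABI1, WASF2 and WASF3 are likewise named after their values were seen. Monomer-binding, severing and capping proteins held 10 rises (47.6%, against 22.0% of all genes) and 3 falls (14.3%, against 19.0%) among 21 (median 0.14). The cyclase-associated protein gene CAP2 rose 2.18-fold (1.13 ± 0.04, SE), the coronin gene CORO1C by 0.38 ± 0.04 (SE) and the capping subunit gene CAPZA2 by 0.33 ± 0.03 (SE). The coronin gene CORO2A fell by 0.76 ± 0.06 (SE). Scaled to the spike-in controls BRK1 and CAP2 stayed above 0 (0.52 and 0.69), and CORO1C and CAPZA2 did not (-0.06 and -0.10).

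The list of other myosins holds mostly single-headed or cargo-carrying motors. It had 2 rises (15.4%, against 22.0% of all genes) and 8 falls (61.5%, against 19.0%) among 13 (median -0.15). The largest were falls in MYO10, which moves to filopodial tips (0.78 ± 0.06, SE, on the log2 scale), MYO1D (0.73 ± 0.05), MYO1E (0.51 ± 0.05) and MYO5C (0.42 ± 0.04). With plain _at probe sets alone MYO10 and MYO5C were at -0.14 and -0.14 and did not pass, and the probe sets of MYO10 ran from -1.36 to -0.14. Cross-linkers and focal adhesion proteins held 7 rises (25.0%, against 22.0% of all genes) and 12 falls (42.9%, against 19.0%) among 28 (median -0.02). ENAH and VASP, related proteins that lengthen filaments at the leading edge, fell by 1.52 ± 0.07 and 1.42 ± 0.04 (SE), or 2.87-fold and 2.67-fold, though VASP has 1 probe set. LASP1, an adhesion protein, fell by 0.65 ± 0.03 (SE) with probe sets from -1.30 to 0.02, and was at -0.04 and did not pass with plain _at probe sets alone. The bundling protein gene PLS3 rose by 0.66 ± 0.03 (SE) and was at 0.23 on the spike-in scale.

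Further SRF cofactors and MRTF-SRF targets held 3 rises (23.1%, against 22.0% of all genes) and 1 fall (7.69%, against 19.0%) among 13 (median 0.07). The rises were in ANKRD1 (2.48 ± 0.08, SE), CCN1 (2.05 ± 0.03) and CCN2 (1.93 ± 0.05), which also respond to YAP and stayed above 0 on the spike-in scale (2.04, 1.62 and 1.49). The fall was in TGFB1I1, an adhesion protein (0.28 ± 0.06, SE). The smooth muscle actin genes ACTA2 and ACTG2, chosen after their values were seen, gave -0.07 ± 0.05 and 0.10 ± 0.06 (SE) and did not pass. The last list holds factors and targets of the ERK-driven arm of SRF, which uses ternary complex factors in place of MRTFs. It had 1 rise (10.0%, against 22.0% of all genes) and 3 falls (30.0%, against 19.0%) among 10. Its median was 0.0058, with a mean of the other sign (-0.05). ELK3 fell by 0.35 ± 0.05, EGR1 by 0.26 ± 0.03 and JUNB by 0.20 ± 0.04, and ELK1 rose by 0.19 ± 0.04 (SE), which turned to -0.24 on the spike-in scale. ELK3 was at -0.05 and did not pass with plain _at probe sets alone or without _s_at and _x_at probe sets.

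**Figure D4:**
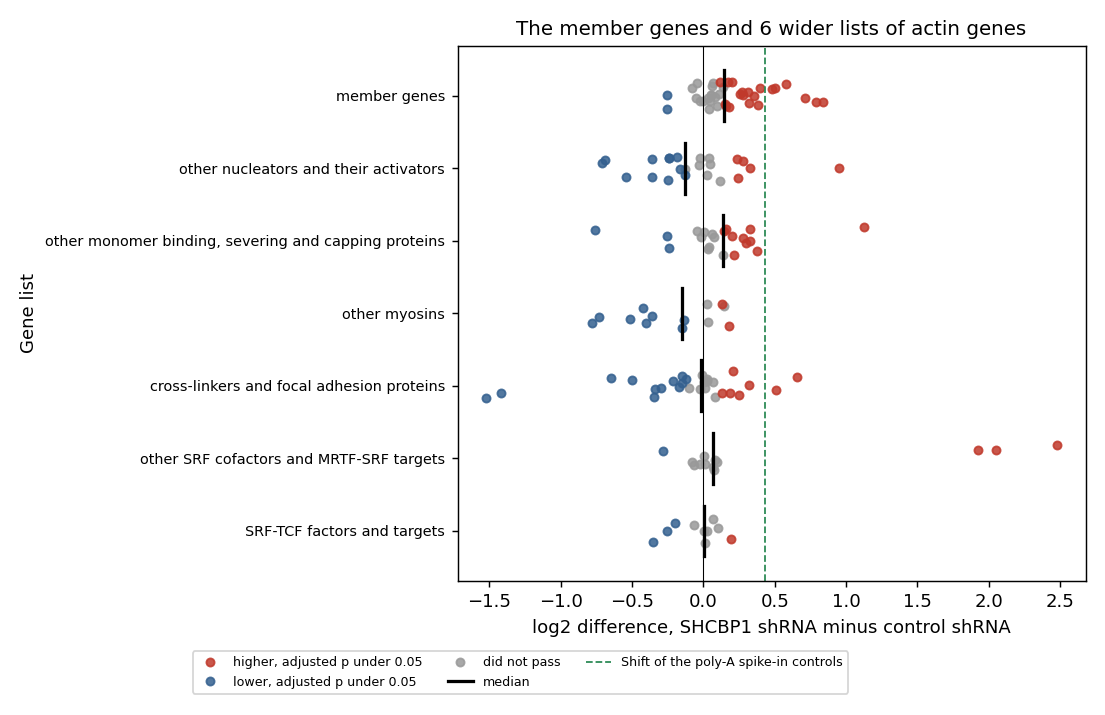
Log2 differences, SHCBP1 shRNA minus control shRNA, of the 38 measured genes of the main list (top row) and of 6 wider lists, with a black bar at each median and a dashed line at the spike-in shift (0.43). The wider lists spread to both sides of 0, with ENAH and VASP at the far left and ANKRD1, CCN1 and CCN2 at the far right, and all points would lie 0.43 further left on the spike-in scale.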

How the data were processed

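RNA from 6 samples was measured on Affymetrix PrimeView arrays, in groups given by the sample titles. The authors made the deposited log2 values with RMA, per the submitters' processing notes. Its software is not given in the sources used here. The log base was taken as 2 because RMA uses it. Since the 6 values of every probe set have a median of 0, they were centred before deposit, which left no signal level to filter on. RMA's quantile step removes a shift common to all transcripts.

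Of 49395 probe sets, 102 are Affymetrix controls, 44988 name 1 gene, 1832 several and 2473 none here. Only those with 1 gene were used. A gene's value is the mean of its probe sets, without the control probe sets of ACTB and GAPDH. The unpaired test was limma's (version 3.58.1, lmFit then eBayes, under R 4.3.3), and p-values were adjusted by Benjamini-Hochberg across the 18132 genes. Errors are limma's moderated SE, and for controls and pairs of genes the SE of a difference of group means. Promoter windows come from RefSeq (GRCh38.p14), and 41 of 41 symbols matched its gene table.

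The listed genes and wider lists were chosen with earlier results of these data known. Named outside the main list are SHCBP1 and, per wider list, up to 4 genes with the largest differences past the threshold. ACTA2, ACTG2, ARPC5L, ACTR3B, ABI1, WASF2 and WASF3 fall outside that rule. The pairs of related genes were formed after seeing the data. The fit was tested on simulated data. Arrays of one group differed with an SD of 0.105 to 0.111, and arrays of different groups with 0.302 to 0.309, so no array repeated another. Same-numbered replicates did not deviate together (correlations of 0.018, -0.0462 and 0.0674), so the numbers were not used as pairs. The alternatives are described with their effects. One further gene list is not reported here.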

Additional observations from a re-analysis of the deposited data

Results flagged for a closer look

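Control probe sets outside the gene tests differed between the groups. The 24 probe sets of the poly-A spike-in controls averaged 0.17, 0.24 and 0.22 in SHCBP1 shRNA arrays, against -0.21, -0.29 and -0.17 in control shRNA arrays, a log2 difference of 0.434 ± 0.04 (SE). The 18 probe sets of the hybridisation controls, which are added after labelling, differed by 0.08 ± 0.02 (SE). At the 5′ end of 28S ribosomal RNA the control probe set read 1.42, 1.40 and 1.37 in SHCBP1 shRNA arrays, against -1.38, -1.46 and -1.37 in control shRNA arrays, a log2 difference of 2.80 ± 0.035 (SE). The middle and 3′ probe sets of the same RNA differed by 1.56 ± 0.04 and 0.30 ± 0.06 (SE). Of the 20 risen genes of the actin list, 14 rose by less than the spike-in difference and 6 by more. What part these differences have in the gene values was not tested.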

How the results depend on the processing

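The main limits are 3 arrays per group, values that carry no signal over background, and scale. Scaling to the spike-in controls gave 441 genes higher and 16268 lower (16709 in all, against 3992, 3448 and 7440), 4 actin-list genes higher and 27 lower with a median of -0.29, and 6 higher and 97 lower genes of the wider lists. It reversed ACTB (-0.27), ACTG1 (-0.38), TPM4 (-0.28), MYH9 (-0.34), MYL6 (-0.11), MYL9 (-0.36), MYL12A (-0.38), MYL12B (-0.038), CNN1 (-0.40), CNN3 (-0.078), TAGLN (-0.38), CALD1 (-0.23), CFL1 (-0.26), CFL2 (-0.33), PFN1 (-0.40), ARPC1A (-0.17), ARPC2 (-0.38), ARPC5 (-0.052), ACTR3 (-0.31), CAPZA1 (-0.16), CAPZB (-0.26), SRF (-0.29), MRTFA (-0.16), EZR (-0.12), MSN (-0.35), CORO1C (-0.059), CAPZA2 (-0.10) and ELK1 (-0.24). Reversed here means a change of sign, with a call on at least 1 of the 2 scales. MYL6, MYL12B, CNN3, ARPC5, EZR, CORO1C and CAPZA2 did not pass on the spike-in scale. ACTG1, MYH9, MYL9, MYL12A, CNN1, TAGLN, CFL2, PFN1, ARPC2, SRF and MSN had not passed in the main fit. Scaling to the spike-in controls moves every gene down by the measured difference of the controls. Plain _at probe sets alone left 8354 genes and 9 of the 38: 1900 genes passed (995 higher, 905 lower), 1 actin-list gene passed (1 higher, 0 lower) with a median of 0.081, and 7 and 7 of 43 wider-list genes were higher and lower. Falls in the actin list numbered 1 with the median of probe sets and 1 without _s_at and _x_at probe sets. Each probe set on its own gave 17270 of 44988 past the threshold, and the probe set farthest against the mean was at -0.067 for CALD1, 0.028 for MRTFB and 0.13 for DIAPH1. That probe set kept the sign but did not pass for ACTB (0.086), TPM4 (0.070), MYH10 (-0.14), MYL6 (0.22), ACTR3 (0.085), EZR (0.093) and RDX (0.20). Leaving out each array gave 20 to 23 actin-list genes past the threshold (18 to 21 higher, 2 to 2 lower), a median of 0.13 to 0.16, 6655 to 6840 genes in all and SHCBP1 at -1.59 to -1.47. With the replicate number as a block 22 actin-list genes passed (20 higher, 2 lower, 7092 genes in all), and no call in that list changed. Repeated quantile normalization changed 1 call there (ARPC1B passed), and array centring, array weights, robust moderation and adding the control probe sets changed 0. The alternatives without _s_at and _x_at and with control probe sets were chosen after seeing the data.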
